A study of Drosophila melanogaster with 16 samples.

Results

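The return from a sugar diet to the control diet was examined in 4 of the 16 libraries of the series, 2 libraries of flies that went from sugar to control (SD>CD) and 2 of flies that stayed on control food (CD>CD). Members were chosen by the condition label, and the same-strand count of each gene was used. All flies were adult male Drosophila melanogaster of genotype Gr5a>UAS-Rpl3-3XFLAG, in which the driver of the sweet taste receptor gene Gr5a puts a FLAG tag on ribosomal protein RpL3. SD>CD flies ate 30% sucrose for 7 days from an age of 5 days and then 5% sucrose for 7 days, whereas CD>CD flies ate 5% sucrose throughout, and both were collected at 19 days. Each replicate held 300 heads, and mRNA was taken by translating ribosome affinity purification (TRAP), a pull-down of tagged ribosomes. What is measured is therefore the RNA of the pulled-down Gr5a fraction. It covers every cell in which the driver is active, and RNA that came down without the tag. The other Gr5a libraries were 2 of flies on sugar for 3 days (SD3), 2 on sugar for 7 days (SD7) and 3 on the control diet for 7 days (CD7).

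Gr5a marks the gustatory receptor neurons that respond to sugars in the taste hairs of the fly. Such neurons hold few of the transcripts of a head, and TRAP raises their share. In flies fed much sugar these cells are known to answer sweet stimuli less strongly, and the comparison asks whether translated mRNAs of flies moved back to control food still differ from those of flies that never left it. The study examined transcription factors, among them cad and GATAe, as activators of neuronal genes in these cells. In other tissues cad and GATAe are known as factors that specify and maintain the intestine.

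The labels and the libraries carried several limits on this comparison. The titles of both SD>CD libraries read CD>CD with numbers 3 and 4, which goes against their condition label, and every value below rests on that label. CD>CD replicate 2 resembled the sugar libraries at several genes from a set of diet markers, which earlier results had picked from the whole-head input of day 7. In the Gr5a fraction no gene passed for SD7 against CD7 in edgeR, where 772 had an unadjusted p under 0.05, and DESeq2 called 57. Lsp2, a storage protein of the fat body, stood at 51.8 and 169 CPM in SD>CD, at 648 and 1.62 CPM in CD>CD, at 0.45 to 4.88 CPM in the SD3 and SD7 libraries and at 124 to 378 CPM in the CD7 libraries. CNMa, a neuropeptide gene, stood at 7.53 and 7.44 CPM in SD>CD, at 1.64 and 19.9 CPM in CD>CD, at 5.19 to 14.5 CPM on sugar and at 1.39 to 1.90 CPM in CD7. At both genes CD>CD replicate 1 lay above or within the CD7 range and replicate 2 within or beyond the sugar range, with SD>CD between them. The depth was 23775770 and 22901154 gene counts in SD>CD and 23123160 and 29633926 in CD>CD, in a series that ran from 22901154 to 55290069. The SD>CD replicates were alike, with a median absolute log2 ratio of 0.11 between them over 10279 genes. The CD>CD replicates differed by 0.32 over 11570 genes. CD>CD replicate 1 also stood apart in quality, with 58.4% of its counts assigned to no gene. That share was 39.7% in CD>CD replicate 2 and 44.1% and 45.5% in SD>CD. The same-strand share of strand-specific counts was 93.6% in CD>CD replicate 1 and 95.8% in replicate 2. The labels call the libraries biological replicates and do not say that cultures were separate, so p-values measure the spread between these libraries.

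Most of the difference was a loss. Of 13758 genes tested, 1799 were lower in SD>CD than in CD>CD, a background of 13.1%, and 29 were higher, 0.211% (edgeR quasi-likelihood test, adjusted p under 0.1, 2 libraries a group). At an unadjusted p under 0.05 there were 2521 genes. The skew of the log2 fold changes over all genes, which is negative where the long tail lies among genes that fell, was -2.39, although their median was -0.03. The genes that fell did so steeply. With genes that had no count in SD>CD set to the floor of 3 counts a library, 1181 were over 8-fold lower, 551 between 2-fold and 8-fold lower and 67 less. SD>CD had no count in either library for 485 of them and at most 3 counts in each library for 1104. At 1786 of the 1799 both SD>CD libraries lay below all 9 other Gr5a libraries. That count follows in part from the choice of genes low in SD>CD, and its share over all genes was not taken. Over all genes tested, 26.7% had both SD>CD libraries below both CD>CD libraries. Together the genes that fell took 0.252% and 0.261% of the gene counts in SD>CD, against 1.48% and 6.65% in CD>CD. In bulk libraries, fewer cells of a type and less RNA per cell cannot be told apart.

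**Figure D1:**
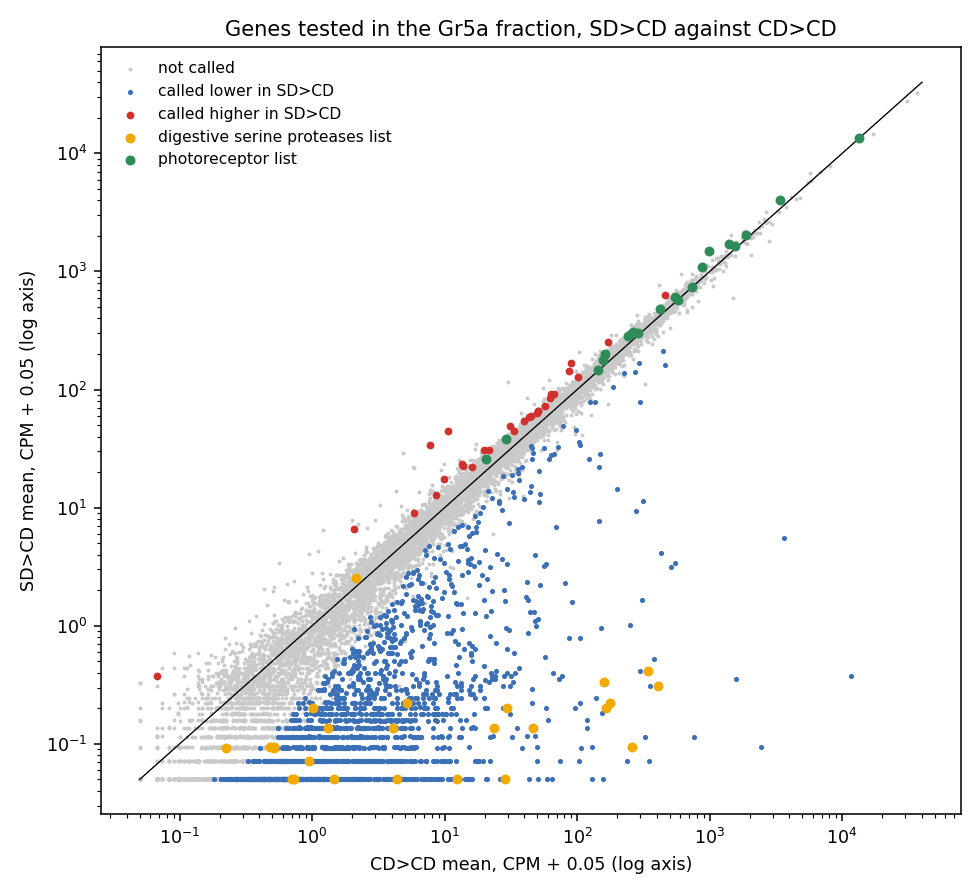
Mean CPM of each of the 13758 tested genes in CD>CD (horizontal axis) and in SD>CD (vertical axis), both on log axes after adding 0.05 CPM, with the line of equal level. Most of the 1799 genes called lower (blue) fall far below the line, and most of the 29 called higher (red) stay near it. Most protease genes (yellow) lie near the bottom edge, and the photoreceptor genes (green) lie along the line.

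The 2 CD>CD libraries did not carry these genes equally. Among the 1396 genes that fell and had at least 10 counts in both CD>CD libraries, 1254 were higher in replicate 2, and the median absolute log2 ratio between the replicates was 1.16. Without CD>CD replicate 2 the test called 1149 genes lower and 21 higher, and without CD>CD replicate 1 it called 2143 lower and 110 higher. Without SD>CD replicate 1 the counts were 1226 lower and 3 higher, and without SD>CD replicate 2 they were 1170 and 14. Of the 1799 genes lower with all 4 libraries, 1106 to 1732 were called again in these fits, but of the 29 higher only 3 to 10 were. With 1 library left in a group, its spread is taken from the other groups.

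Of the 4 regulators, cad and GATAe were almost gone from SD>CD. cad (FBgn0000251, 2L:20770731-20783135, protein-coding, dm6), a homeodomain factor, had just 2 counts per SD>CD library, 0.0856 and 0.0876 CPM, against 7.75 and 23.8 CPM in CD>CD. The ratio of the means was 182-fold, with a 95% interval of 71.2 to 669 that covers counting error in SD>CD only, and the log2 fold change was -7.46 (SE 0.88, edgeR adjusted p 0.00105). GATAe (FBgn0038391, 3R:16009105-16019133, protein-coding), a GATA factor of the gut endoderm, had no count in either SD>CD library, against 3.57 and 14.6 CPM in CD>CD, and was at least 69.9-fold lower against a floor of 3 counts a library (edgeR adjusted p 0.00179). Both groups were far apart at both genes, and both calls held without any one of the 4 libraries, with log2 fold changes of -8.07 to -6.43 for cad.

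The other 2 regulators differed by far less. Ptx1 (FBgn0020912, 3R:30912754-30930682), a homeodomain factor, stood at 9.12 and 9.63 CPM in SD>CD and at 12.5 and 22.1 CPM in CD>CD, a log2 fold change of -0.89 with an SE of 0.35 (edgeR adjusted p 0.185). nub (FBgn0085424, 2L:12587625-12628135), a POU factor that acts in wing growth and gut immunity, stood at 7.32 and 5.04 CPM in SD>CD and at 7.65 and 15.9 CPM in CD>CD, a log2 fold change of -0.93 with an SE of 0.35 (edgeR adjusted p 0.152). Neither passed the threshold, although the groups did not overlap, which was so in the same direction for 26.7% of all genes. DESeq2's Wald test called both lower, at -0.88 for Ptx1 (adjusted p 0.0895) and -0.92 for nub (adjusted p 0.061). In edgeR both passed without CD>CD replicate 1, at -1.26 for Ptx1 (adjusted p 0.0303) and -1.38 for nub (adjusted p 0.00857), and nub also passed with no filter on low counts (adjusted p 0.0849). CD>CD itself lay below CD7 in both replicates at all 4 regulators, and the CD7 libraries held cad at 35.8 to 59.6 CPM and GATAe at 28.2 to 31.3 CPM.

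The total level of RpL3 mRNA did not move with these losses. The counts do not separate the tagged transgene from the fly's own gene, so the level of the tag was not measured. RpL3 (FBgn0020910, 3R:11221894-11225173) stood at 1218 and 1095 CPM in SD>CD and at 1238 and 1090.5 CPM in CD>CD (edgeR adjusted p 0.995). Beside 13.1% lower over all genes, 2 of 86 genes of cytosolic ribosomal proteins, matched by symbol, fell. These were RpL22-like, a duplicate of RpL22 with high expression in the testis, and RpL10Aa.

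Genes of digestion were among those that fell. Trypsins and Jonah proteases, the serine proteases that the midgut secretes to break down protein, summed to 4.63 and 4.85 CPM in SD>CD over 29 genes, against 739.5 and 2542 CPM in CD>CD. SD>CD held 0.289% of the CD>CD level. Of 25 tested genes of this list 19 fell and none rose, beside 13.1% lower over all genes. The median log2 fold change was -7.59, or -5.16 with genes at no count set to the floor, beside -0.03 over all genes. alphaTry (FBgn0003863) stood at 0.128 and 0.394 CPM in SD>CD and at 189 and 632 CPM in CD>CD, a ratio of 1581 (95% counting interval 905 to 3060, edgeR adjusted p 0.000309). betaTry had 1 count in each SD>CD library, against 114 and 404 CPM in CD>CD, a ratio of 5984 (95% counting interval 1657 to 49414). Jon65Aiv stood at 0.514 and 0.219 CPM in SD>CD, against 168 and 516 CPM in CD>CD, and Jon65Aiii at 0.128 and 0.219 CPM, against 85.5 and 266 CPM. All 4 were close to 0 in SD>CD, far below either CD>CD library. Of the 6 that did not pass, Try29F differed least, at 2.31 and 2.67 CPM in SD>CD and 2.54 and 1.62 CPM in CD>CD. Near-identical copies in the Jon, Try and Lys families make their single counts uncertain, which bears less on the sums.

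Sugar digestion fell with them. Among amylases, maltases and mannosidases 15 of 20 genes fell and none rose, beside 13.1% lower over all genes. The median log2 fold change of the list was -6.18. Mal-A1, a maltase that splits disaccharides (FBgn0002570, 2R:8449664-8451904), stood at 2.95 and 3.81 CPM in SD>CD and at 362 and 737 CPM in CD>CD, a log2 fold change of -7.34 with an SE of 0.69 (edgeR adjusted p 0.000491). Amy-p, an amylase that cuts starch, stood at 5.69 and 13.05 CPM in SD>CD and at 240 and 316 CPM in CD>CD, a log2 fold change of -4.89 with an SE of 0.60 (edgeR adjusted p 0.00117). tobi, an alpha-glucosidase that responds to insulin and glucagon-like signals, stood at 8.99 and 13.9 CPM in SD>CD and at 260 and 370 CPM in CD>CD. Mal-A7 had 1 count in both SD>CD libraries together, against 193 and 284 CPM in CD>CD. At all 4 genes the SD>CD libraries lay far below both CD>CD libraries. Amy-p itself was also lower on sugar at day 7, at 92.4 and 49.4 CPM in SD7 and 253 to 722 CPM in CD7, a difference that did not pass the test (edgeR adjusted p 0.699).

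The members that stayed made up nearly all that was left of this list in SD>CD, where the list summed to 474 and 561 CPM, against 2125 and 3906 CPM in CD>CD. LManII, a lysosomal mannosidase, stood at 294 and 340 CPM in SD>CD and at 359 and 195 CPM in CD>CD. Mal-A5 stood at 70.6 and 75.4 CPM in SD>CD and at 61.6 and 69.9 CPM in CD>CD, and Mal-B2 at 57.7 and 64.5 CPM and at 77.6 and 64.4 CPM. None of these 3 passed the test (edgeR adjusted p 0.757 to 0.900).

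Fats, bacteria and the gut lining were served by smaller lists that moved alike. Among lipases 7 of 11 tested genes fell, among lysozymes and peptidoglycan amidases 6 of 12, and among peritrophins and mucins 3 of 6. No gene of these lists rose, and over all genes tested 13.1% fell. CG6295, a lipase, stood at 0.0428 and 0.350 CPM in SD>CD and at 83.5 and 193 CPM in CD>CD. mag, a secreted lipase that frees dietary lipid, had no count in SD>CD, against 9.02 and 4.57 CPM in CD>CD, and was at least 52.3-fold lower (edgeR adjusted p 0.00278). LysP, a lysozyme, had 1 count in SD>CD, against 37.2 and 657 CPM in CD>CD, so that the CD>CD replicates differed widely between themselves. Muc68D, a mucin, had none, against 14.4 and 37.8 CPM in CD>CD, and was at least 201-fold lower (edgeR adjusted p 0.0142). Over the 5 digestion lists 50 of 74 tested genes fell and none rose, and 43 of the 74 were higher in CD>CD replicate 2 than in replicate 1.

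**Figure D2:**
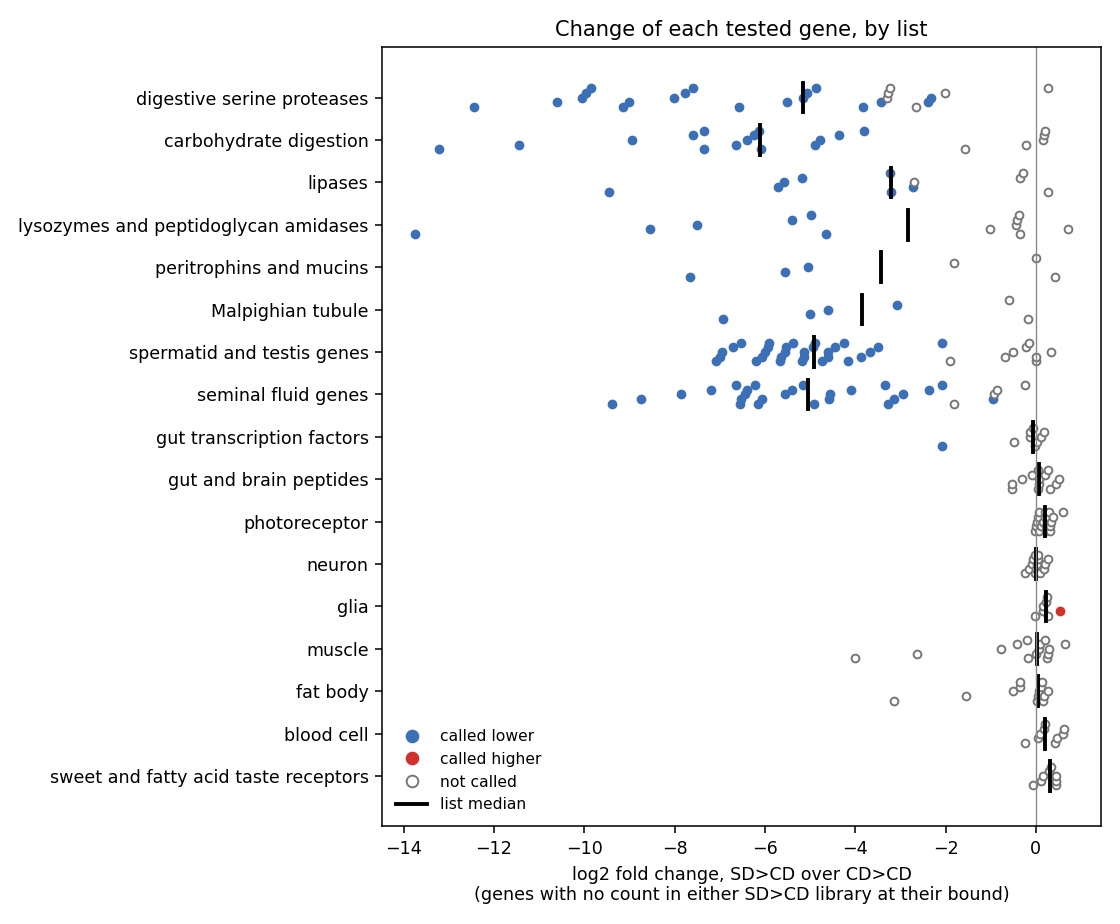
Log2 fold change, SD>CD over CD>CD, of each tested gene of 17 lists, with filled points for called genes and a bar at each list's median. Genes without a count in SD>CD are drawn at the bound from 3 counts a library. The digestion, tubule, testis and seminal fluid lists reach far to the left, and the lists of head tissues gather near 0, save a few muscle and fat body genes that lie lower and were not called.

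Most transcription factors on a list for the gut did not pass. Of the 9 tested on that list, which leaves out cad and GATAe, 1 fell, near the 13.1% lower over all genes. This was exex, at 1.80 and 2.28 CPM in SD>CD and 7.28 and 9.88 CPM in CD>CD. Its log2 fold change was -2.08 with an SE of 0.40 (edgeR adjusted p 0.00751). exex encodes a homeodomain protein of motor neurons and of part of the midgut. The other 8, which include srp and pros, are known to act in other tissues too, and pros stood at 2368 and 2511 CPM in SD>CD and 2482 and 2454 CPM in CD>CD. None of 13 peptide genes shared by gut endocrine cells and the brain, such as Tk and NPF, passed the test, and their median log2 fold change was 0.06.

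Genes of the male reproductive tract also fell. Of 38 tested genes of the testis and of spermatids 30 fell and none rose, beside 13.1% lower over all genes. The median log2 fold change of the list was -5.14. S-Lap1, an aminopeptidase-like protein of sperm (FBgn0035915, 3L:8617235-8619474), stood at 2.40 and 1.93 CPM in SD>CD and at 33.7 and 71.8 CPM in CD>CD, a log2 fold change of -4.61 with an SE of 0.58 (edgeR adjusted p 0.00129). loopin-1, a related protein of sperm mitochondria, stood at 1.71 and 0.482 CPM in SD>CD and at 31.6 and 70.2 CPM in CD>CD. The list summed to 37.8 and 29.6 CPM in SD>CD, against 258 and 609 CPM in CD>CD, and did not overlap between the groups. The fusion gene fzo was among the 8 that did not pass, at 9.12 and 9.28 CPM in SD>CD and 21.4 and 8.32 CPM in CD>CD.

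Of 30 seminal fluid genes 26 fell and none rose, beside 13.1% lower over all genes. The median log2 fold change of the list was -6.91, or -5.04 with genes at no count set to the floor. Ebp, a protein of the mating plug, had 3 counts in each SD>CD library, against 27.5 and 34.7 CPM in CD>CD, a ratio of 240 (95% counting interval 110 to 653, edgeR adjusted p 0.00025). Acp36DE, an accessory gland protein that aids sperm storage, stood at 0.257 and 0.394 CPM in SD>CD, against 25.3 and 30.3 CPM in CD>CD. SP, the sex peptide that changes the behaviour of mated females, had no count in SD>CD, against 1.503 and 1.15 CPM in CD>CD, and was at least 10.2-fold lower (edgeR adjusted p 0.000861). Est-6, an esterase of the ejaculatory duct that is also found in the antenna, differed least among the 26, at 132 and 152 CPM in SD>CD and 186 and 361 CPM in CD>CD. Its call was lost in 5 of 12 alternatives. Its log2 fold change was -0.94 (SE 0.29, edgeR adjusted p 0.0665), and it made up most of the 135 and 160 CPM to which the list summed in SD>CD.

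In the Malpighian tubule list, the fly's renal tissue, 4 of 6 genes fell, beside 13.1% of all genes. Uro, urate oxidase (FBgn0003961, 2L:7780085-7781415), had no count in SD>CD, against 5.49 and 26.2 CPM in CD>CD, and was at least 122-fold lower (edgeR adjusted p 0.00209). Oatp58Dc, an organic anion transporter found also in the barrier of the brain, stood at 92.0 and 96.8 CPM in SD>CD and at 90.3 and 123 CPM in CD>CD.

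**Figure D3:**
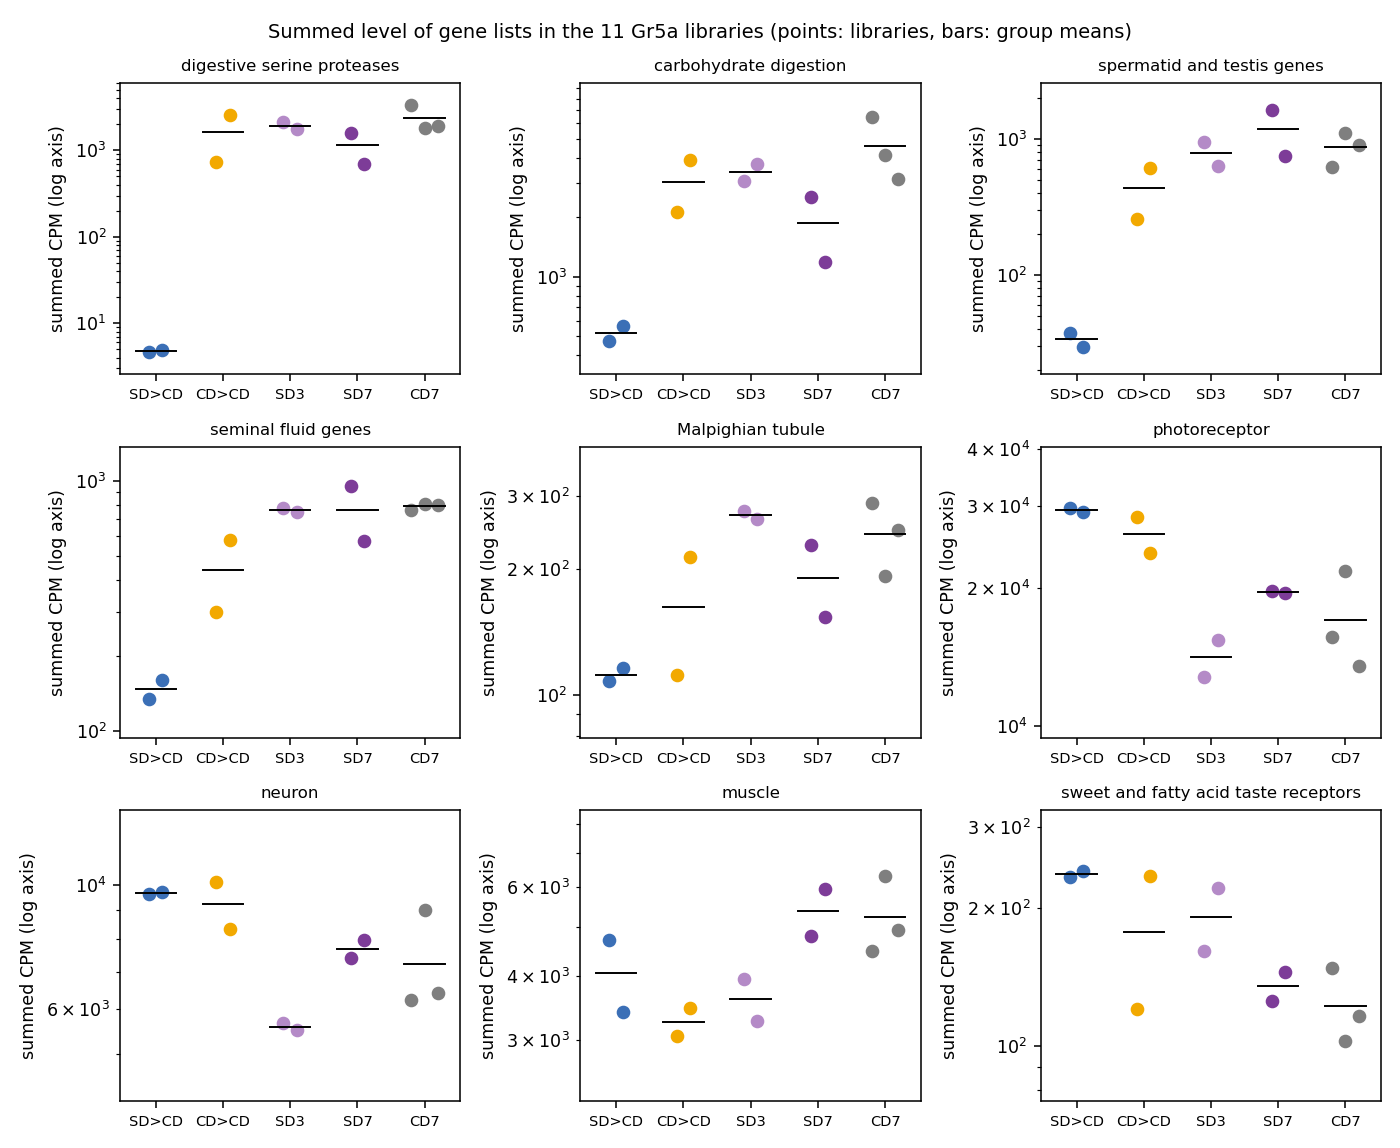
Summed CPM of 9 gene lists in each of the 11 Gr5a libraries on log axes, with a point for each library and a bar at each group mean. SD>CD lies below every other library in the protease, sugar digestion, testis and seminal fluid lists, overlaps CD>CD in muscle, and lies above all others in the photoreceptor list.

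Ranked by the level in the lower CD>CD library, the 10 leading genes that fell without overlap included 3 abundant ones that are in no list. CG16826 (FBgn0032505, 2L:13347773-13349020) had 12 and 3 counts in SD>CD, against 40954 and 635643 in CD>CD, and 1923 and 21501 CPM there. whe (FBgn0031176, X:21402339-21402772) had 0 and 2 counts in SD>CD, against 398 and 4442 CPM in CD>CD. lcs (FBgn0028583, X:21396727-21397316), its near neighbour on the X chromosome, stood at 3.81 and 7.09 CPM in SD>CD and at 935 and 6280 CPM in CD>CD, a log2 fold change of -9.37 with an SE of 0.99 (edgeR adjusted p 0.000802). At all 3 CD>CD replicate 2 was several times above replicate 1 and lay within the range of the 7 libraries of days 3 and 7. CD>CD replicate 1 lay below that range. Mur18B, a mucin-related gene, had 2 and 1 counts in SD>CD, against 351 and 301 CPM in CD>CD, with replicates that were nearly equal.

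The oenocyte gene Cyp4g1, a cytochrome P450 that makes the hydrocarbons of the cuticle (FBgn0010019, X:467057-469335), stood at 2.87 and 5.30 CPM in SD>CD and at 258 and 599 CPM in CD>CD, a log2 fold change of -6.71 with an SE of 0.56 (edgeR adjusted p 0.000309). A short list of hydrocarbon genes was added after its value was seen. In it FASN2, a fatty acid synthase of oenocytes, stood at 3.90 and 2.67 CPM in SD>CD and at 32.0 and 84.5 CPM in CD>CD, whereas desat1 and Cpr, used in many tissues, did not pass. Of these 10 leading genes, 2 fell by little and are broadly expressed. Vha68-2, a subunit of the proton pump, stood at 209 and 213 CPM in SD>CD and 263 and 618 CPM in CD>CD (log2 fold change -1.06, SE 0.32, edgeR adjusted p 0.0617), and AOX1, an aldehyde oxidase, at 183 and 152 CPM and at 294 and 291 CPM (log2 fold change -0.80, SE 0.24, edgeR adjusted p 0.0618). These small falls were less stable, and the call was lost in 6 of 12 alternatives for Vha68-2 and in 5 for AOX1.

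A total of 277 of the genes that fell had at least 10 counts in every one of the 11 libraries. The steepest were lcs, Ag5r, Mal-A6, scpr-C and Mal-B1. Ag5r, a secreted protein of the antigen 5 family, stood at 1.07 and 0.876 CPM in SD>CD and at 26.1 and 478 CPM in CD>CD. Mal-A6, a maltase, stood at 1.33 and 1.88 CPM in SD>CD and at 189 and 427 CPM in CD>CD, a log2 fold change of -7.58 with an SE of 0.72 (edgeR adjusted p 0.000491). scpr-C and Mal-B1 were 18.1 and 283 CPM, and 54.1 and 966 CPM, in CD>CD, and no higher than 3.30 CPM in SD>CD.

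Taken as lists, markers of the tissues of the head showed no such loss, although single muscle and fat body genes lay far lower without a call. Log2 fold changes ran from -4.01 to 0.64 in the muscle list and from -3.14 to 0.26 in the fat body list. None of 20 photoreceptor genes, 14 neuronal genes, 13 fat body genes, 14 muscle genes or 9 blood cell genes passed in either direction. Their median log2 fold changes were 0.21, 0.01, 0.05, 0.03 and 0.21. Some alternatives did call members of these lists. With CD>CD replicate 1 left out, some fat body and photoreceptor genes were called higher and some muscle genes lower. With CD>CD replicate 2 left out, some fat body genes were called lower. ninaE, the main rhodopsin, stood at 13840 and 13376 CPM in SD>CD and at 14483 and 12403 CPM in CD>CD. The neuronal list summed to 9636 and 9685 CPM in SD>CD and to 10124 and 8335 CPM in CD>CD, so that SD>CD lay between the CD>CD replicates. apolpp, the main lipoprotein of the fat body, stood at 6248 and 7491 CPM in SD>CD and at 8338 and 3127 CPM in CD>CD. Among 7 glial genes alrm, which marks astrocytes, rose, at 92.3 and 89.4 CPM in SD>CD and 74.3 and 51.7 CPM in CD>CD, a log2 fold change of 0.53 with an SE of 0.17 (edgeR adjusted p 0.0874). That call was lost in 10 of 12 alternatives, DESeq2 among them (adjusted p 0.103), and without CD>CD replicate 2 the value was 0.29.

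The lists that fell belong to organs of the abdomen, and the flies' heads were separated by sieving. In the day 3 and day 7 Gr5a libraries the protease list summed to 696 to 3330 CPM and in the whole-head input of day 7 to 151 to 860 CPM, so that SD>CD was the one group near 0. The testis list summed to 616 to 1612 CPM in those Gr5a libraries and to 761 to 2542 CPM in the input. Which part the makeup of the sample had in the loss was not tested. Within CD>CD, replicate 2 was 3.44 times replicate 1 in the protease list, 2.36 times in the testis list and 1.92 times in the seminal fluid list. Against CD>CD replicate 1 alone, where 8.03% of 14301 genes fell, 18 of 26 proteases, 15 of 20 sugar-digesting genes, 27 of 38 testis genes and 23 of 30 seminal fluid genes fell.

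Taste genes, Gr5a among them, did not pass the test. Of 12 receptor genes for sweet taste and fatty acids 8 were tested, none passed, and the median log2 fold change was 0.31. Gr64b, Gr64c, Gr64d and Gr64e had no count in any of the 4 libraries. In the day 3 and day 7 Gr5a libraries they had none either, save 1 at Gr64e in SD7 replicate 1. Gr64b and Gr64c have the same annotated span, and those of Gr64d and Gr64e overlap. Whether this overlap left their reads uncounted was not tested, so no absence of these receptors can be read from the zeros. Gr5a itself stood at 4.71 and 6.52 CPM in SD>CD and at 3.71 and 4.53 CPM in CD>CD (log2 fold change 0.44, SE 0.34, edgeR adjusted p 0.665). Gr64f, the sugar co-receptor, stood at 7.71 and 7.40 CPM in SD>CD and at 3.38 and 7.71 CPM in CD>CD (edgeR adjusted p 0.753). Ir76b, a co-receptor of ionotropic receptors for fatty acids and other tastants, stood at 158 and 158 CPM in SD>CD and at 91.2 and 142 CPM in CD>CD (log2 fold change 0.44, SE 0.18, edgeR adjusted p 0.211). At Gr64a, Gr64f, Ir56d and Ir25a CD>CD replicate 2 was at or above both SD>CD libraries and replicate 1 below them. The list summed to 234 and 241 CPM in SD>CD and to 120 and 235 CPM in CD>CD. In the whole-head input, which comes from the younger flies of day 7 only, it summed to 7.43 to 10.3 CPM. Most of the SD>CD and CD>CD sums came from Ir76b and Ir25a, so they are not a level of the sweet receptors. Ir25a stood at 55.2 and 59.6 CPM in SD>CD and at 25.6 and 68.2 CPM in CD>CD. No bitter or water taste gene passed either.

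Of the candidate targets that the study predicted for its regulators, 4 were looked at here and did not pass. The study's full set of candidate targets, part of which it reported as still lower after the return, was not examined. Arc1, a capsid-like gene that acts in neurons and metabolism, stood at 182 and 222 CPM in SD>CD and at 208 and 152 CPM in CD>CD. ACXD, an adenylate cyclase, stood at 25.5 and 23.3 CPM in SD>CD and at 29.3 and 20.0 CPM in CD>CD, and Sytalpha, a synaptotagmin, at 54.9 and 54.3 CPM and at 48.3 and 63.2 CPM. Haspin, a histone kinase, stood at 42.0 and 42.8 CPM in SD>CD and at 57.9 and 47.5 CPM in CD>CD (log2 fold change -0.31, SE 0.19, edgeR adjusted p 0.533). None of the 8 genes of Polycomb repressive complex 2 and its partners, which lay down a silencing mark on histone H3, passed, and their median log2 fold change was 0.05. E(z), the enzyme of the complex, stood at 38.3 and 40.8 CPM in SD>CD and at 33.9 and 34.1 CPM in CD>CD (edgeR adjusted p 0.557).

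**Figure D4:**
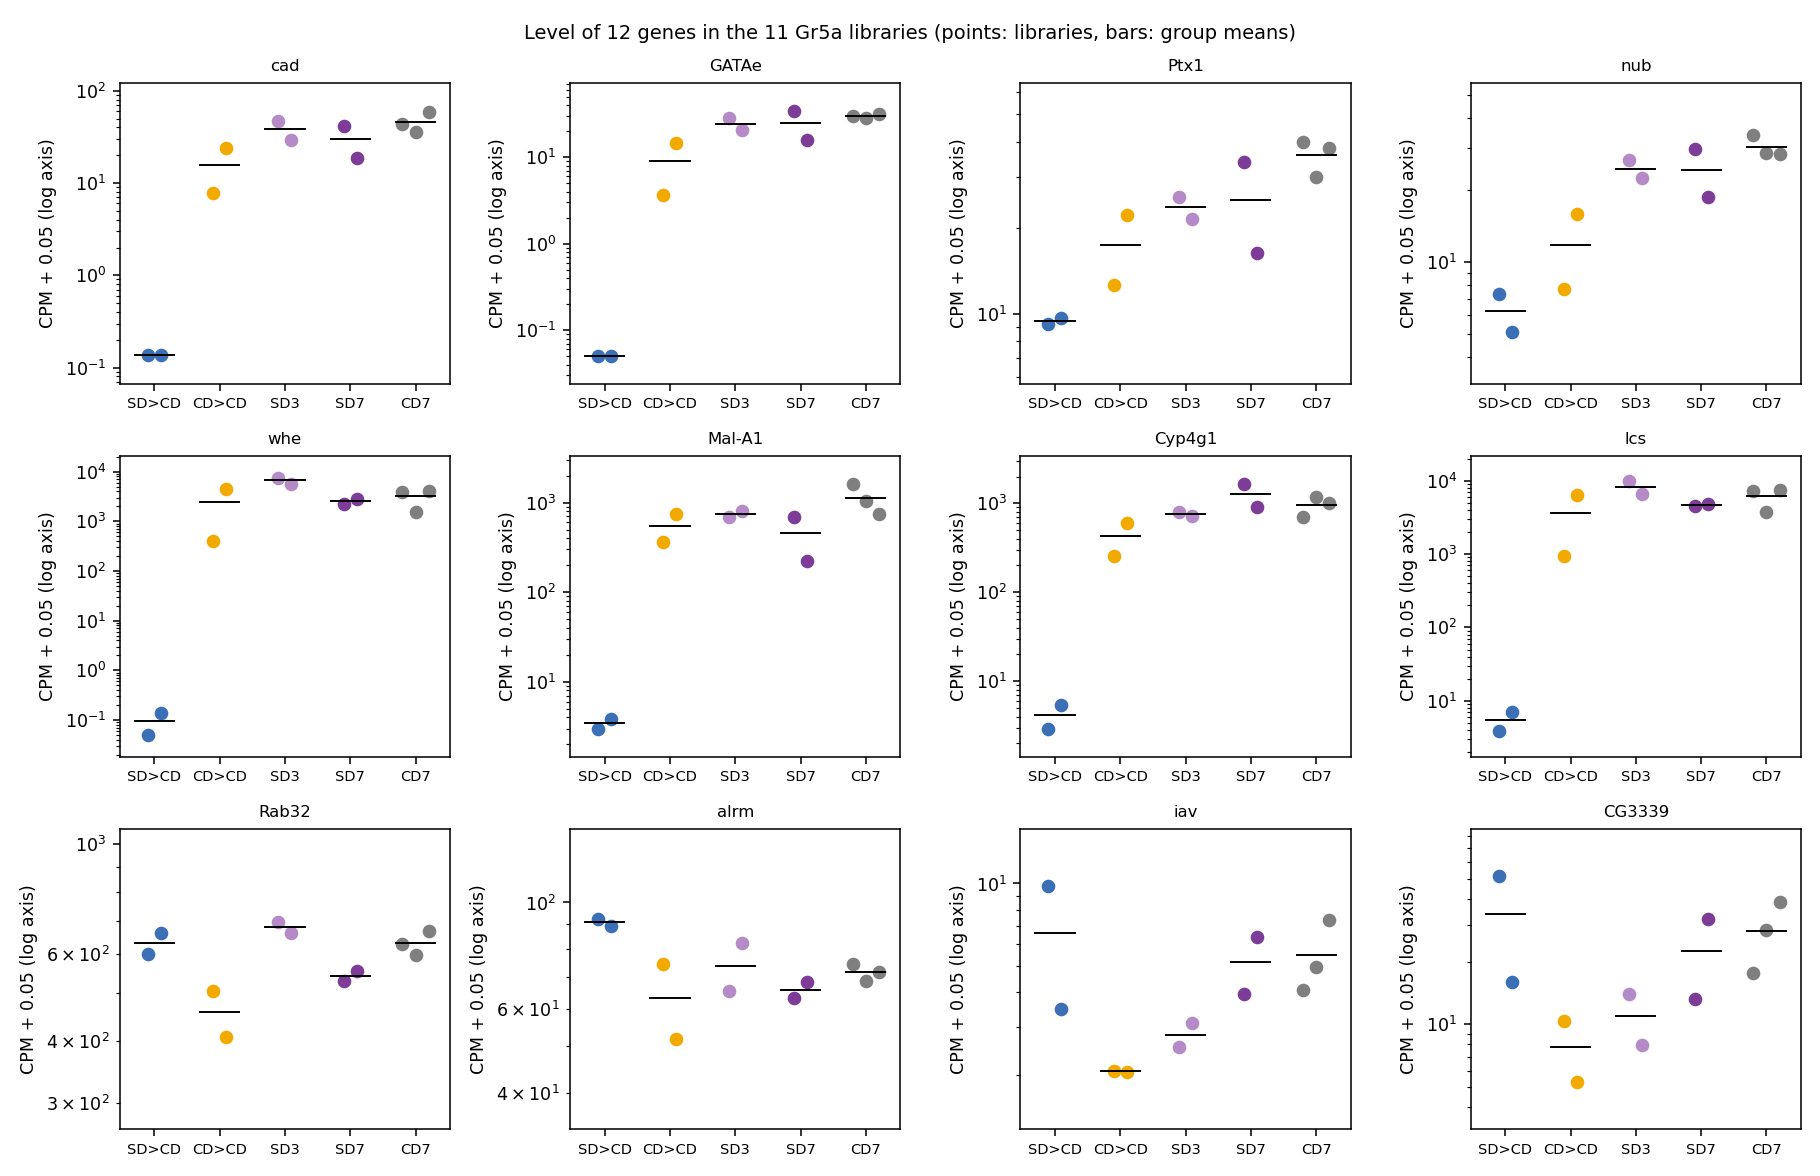
CPM of 12 genes in each of the 11 Gr5a libraries on log axes after adding 0.05 CPM, with a point for each library and a bar at each group mean. cad, GATAe, whe, Mal-A1, Cyp4g1 and lcs lie far lower in SD>CD than in any other library, while Rab32 in SD>CD lies within the range of days 3 and 7 and the SD>CD replicates differ widely at iav and CG3339.

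Most of the 29 genes that rose did so by little. Only 4 rose by over 2-fold on the fitted scale, CheA86a, CG3339, iav and FBgn0037726, which is listed by its identifier only, and the next largest log2 fold change was 0.89. CheA86a had few counts, at 0.385 and 0.263 CPM in SD>CD and 0 and 0.0338 CPM in CD>CD. CG3339, a dynein heavy chain gene, stood at 51.5 and 15.9 CPM in SD>CD and at 10.3 and 5.21 CPM in CD>CD, and iav, a TRP channel subunit of the stretch-sensing neurons of the fly's ear, at 9.72 and 3.42 CPM and at 2.02 and 2.00 CPM. SD>CD replicate 1 was about 3 times replicate 2 at CG3339, FBgn0037726 and iav, and all 3 calls were lost without it (edgeR adjusted p 0.711, 0.781 and 0.748). The calls at CG3339 and FBgn0037726 were also lost without CD>CD replicate 2, and that at iav without either CD>CD replicate, where its log2 fold change stayed at 1.70. Among 18 tested genes of hearing organs and cilia, 3 rose, namely iav, btv and Wdr92, and none fell, beside 0.211% higher over all genes. The list was added after these values were seen, so its count cannot serve as support for a rise of such genes. The btv and Wdr92 calls were lost without any one of the 4 libraries, at log2 fold changes of 0.54 to 0.74 for btv and 0.56 to 0.63 for Wdr92 beside 0.65 and 0.61 with all 4.

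The genes that rose in equal measure in both replicates were led by CG7203, at 166 and 167 CPM in SD>CD and 96.9 and 82.0 CPM in CD>CD, a log2 fold change of 0.89 with an SE of 0.16 (edgeR adjusted p 0.00527). zyd, a calcium exchanger of cortex glia, stood at 144 and 141 CPM in SD>CD, against 94.0 and 79.4 CPM in CD>CD and at most 88.0 CPM in the other libraries. Rab32, a GTPase of pigment granules and related organelles, was the most abundant of the 29, at 599 and 661 CPM in SD>CD and 505 and 408 CPM in CD>CD (log2 fold change 0.46, SE 0.13, edgeR adjusted p 0.0542). Daxx, a histone chaperone, stood at 242 and 261 CPM in SD>CD and 155 and 188 CPM in CD>CD, and CoRest, a scaffold of a histone demethylase complex, at 129 and 124 CPM and at 108 and 95.2 CPM. Of 12 alternatives the call was lost in 0 for CG7203, 3 for Daxx, 4 for zyd, 6 for Rab32 and 9 for CoRest. In 14 of the 29, zyd, Daxx and CoRest among them, both SD>CD libraries lay above all 9 other Gr5a libraries. The share of all genes for which this held was not taken. Over all genes tested, 17.4% had both SD>CD libraries above both CD>CD libraries. In 10 of the 29, which include Rab32, neither SD>CD library was above the highest library of days 3 and 7.

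Beside 13.1% over all genes, the share of genes that fell was 12.8% to 15.9% on the arms of chromosomes 2 and 3 and lower on X. No difference between chromosomes was tested. The genes that fell made up 15.9% of 2568 tested genes on 2L, 14.2% of 3319 on 3R, 13.1% of 2640 on 3L, 12.8% of 2750 on 2R and 9.52% of 2112 on X. None of 104 genes on chromosome 4 fell, and 4 of 11 on the Y chromosome did. Protein-coding genes made up 1685 of the 1799.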

How the data were processed

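Per the labels the authors mapped reads to dm6 by STAR, and the deposited values for 16 libraries are counts of reads in each gene, with no normalization. Their notes also name HTSeq, but the deposited layout is that of STAR, which leaves out reads that map to several places. The same-strand column held 93.6% to 97.3% of strand-specific counts and was used. CD7 replicate 1 has a single column, taken as same-strand, since its median absolute log2 ratio to that column of the other 2 CD7 libraries was 0.50 and 0.29, against 3.99 and 4.45 to the unstranded one. Of the SD>CD and CD>CD counts, 39.7% to 58.4% were assigned to no gene and stayed out.

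The members and lists were chosen with earlier results of these data known. The 11 Gr5a libraries were fitted together with edgeR 4.0.16 in R 4.3.3 (filterByExpr, TMM, prior count 0.125, quasi-likelihood F test, Benjamini-Hochberg adjusted p under 0.1). CPM uses TMM factors, and list sums use the gene count total alone. SE is the log2 fold change over the square root of F. Of 17489 genes 17215 had a symbol, and positions come from the Ensembl annotation of BDGP6, the dm6 assembly. Intervals cover counting error only. The genes named are taste receptors, regulators, 4 of their candidate targets, Polycomb genes and RpL3. From each other list come up to 4 called genes by level in the lower CD>CD library. Added to these are the 10 called genes in each direction without overlap that were most abundant in the lower library of the higher group. The 5 largest changes in each direction among genes with at least 10 counts everywhere complete the set. Other genes, such as the unchanged members of a list, were chosen after their values were seen. One regulator examined by the study is not reported here. The scripts were tested on simulated data. Alternatives were DESeq2 1.42.0, the unstranded column, other filters and scalings, other control groups and leaving out each library.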

Additional observations from a re-analysis of the deposited data

Results flagged for a closer look

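The change of SD>CD against CD>CD was tested against the change of SD7 against CD7 in 1 edgeR fit. The 2 differences of log2 fold changes were unlike at 1696 genes (adjusted p under 0.1), more negative after the return in 1641 and more positive in 55. The difference was -6.84 at cad (edgeR adjusted p 0.00429), with a log2 fold change of -7.46 in SD>CD against CD>CD and -0.62 in SD7 against CD7. It was -11.08 at GATAe (edgeR adjusted p 0.00526), a fitted value that depends on the prior count because SD>CD had no count there. For SD7 against CD7 alone the edgeR count of calls was 0, although 772 genes had an unadjusted p below 0.05, and DESeq2 called 57. The groups have 2 or 3 libraries each, and no library was tested as an outlier.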

How the results depend on the processing

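No paired analysis was possible because the SD>CD and CD>CD libraries share no replicate numbers in their titles and no animals. The calls lower numbered 1799 of 1828. Under the alternatives the counts called, lower and higher were 144, 142 and 2 with at least 10 counts in every library (9932 genes tested, a minimum that drops genes that fell to near 0), 1142, 1122 and 20 in a fit on the 4 libraries alone, and 5982, 3816 and 2166 with CD7 as control, where falls made up 63.8% of calls. Leaving out 1 library gave 1149 to 2143 lower, 3 to 110 higher and 1170 to 2253 in all. Genes called higher numbered 58 with DESeq2 (2060 lower), 12 with no filter and 9 at an adjusted p under 0.05. The skew of -2.39 was -2.81 with the unstranded column and CD7 replicate 1 left out, -1.93 with no filter, -5.45 with at least 10 counts, -3.23 on the 4 libraries, -2.05 against CD7 and -2.19 to -1.96 without 1 library. Against CD7 Sytalpha (0.70), jing (0.44), Rab32 (-0.00239) and FBgn0037726 (-0.0713) changed sign. Of 64 named genes called, 41 kept direction and call under every alternative that could test them. The causes of these shifts were not tested. With 2 libraries a group an exact permutation test of a single sum cannot go below 0.333, so none was run.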

Other observations

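CD>CD also differed from CD7, the younger flies on the same food. The edgeR fit called 1942 genes, 889 lower and 1053 higher in CD>CD. cad was lower in CD>CD than in CD7 by a log2 fold change of -1.54 (edgeR adjusted p 0.0844), GATAe by -1.70 (edgeR adjusted p 0.0895), Ptx1 by -1.05 (edgeR adjusted p 0.0808) and nub by -1.36 (edgeR adjusted p 0.0370). Age and any difference between the collections cannot be told apart here. Of 12 tested genes of antimicrobial peptides 1 fell in SD>CD and none rose, no more than the 13.1% lower over all genes. It was CecA1, with 2 and 1 counts in SD>CD, against 16 and 25 counts in CD>CD. Its call was lost in 1 of 11 alternatives. Among the 8 tested ovary and eggshell genes none passed, and the list summed to 14.7 and 15.9 CPM in SD>CD and to 13.3 and 11.3 CPM in CD>CD.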
